A study of Mus musculus with 8 samples.

Results

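The lymphatic endothelial genes described here are 6 genes that mark the cells lining lymphatic vessels, namely Prox1, Lyve1, Nrp2, Mmrn1, Reln and Ccl21a. They were read from microarrays of whole mouse lung as every array feature that the platform annotation names for them. Of the 6 members, 5 had at least 1 named feature, and these 5 were among the 17234 genes tested. Nrp2 had 2 features and the other 4 had 1 each, so 6 of the 62976 array features belong to the set. Where a gene had more than 1 feature, the feature with the highest mean over all 8 arrays stood for it. No feature was named for Ccl21a, the gene for the chemokine by which lymphatic vessels draw in CCR7-bearing dendritic cells, or for its near-identical copies Ccl21b and Ccl21c, so Ccl21a has no value here.

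The series compared lungs of C57Bl/6J pups with the genotype label Fgf10 +/- with lungs of wild-type pups of the same background. Both groups were held in a chamber at 85% oxygen from postnatal day 0 to day 3, and no lungs from room air were analysed here, so the values show a genotype comparison under oxygen only. There were 4 arrays per group, hybridised in 1 colour with Cy3, and the sources used here do not say whether a sample was 1 pup or a pool, or how the allele was made. The titles name the first group TG without explaining it, and Fgf10 gives no check of the labels, since no source used here states which part of the gene is lost or where its features lie. Of 10 Fgf10 features bright enough to be tested, only the brightest is given here. Its log2 intensity averaged 7.81 ± 0.28 in wild-type lungs against 8.04 ± 0.20 in those labelled Fgf10+/- (SD, n = 4 each). The log2 difference was 0.23 (SE 0.16, limma adjusted p = 0.653). The directions given here hold only as far as the labels do. The labels name no litters, so the p-values speak of the spread among these arrays, which may be partly technical.

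Lymphatic vessels drain fluid and carry immune cells out of the lung, and take up part of the fluid that leaves the airspaces after birth. Their endothelium arises from veins when the transcription factor Prox1 is switched on, with Sox18 and Nr2f2 acting upstream, and it grows toward the ligand Vegfc, which signals through the receptor Flt4 (VEGFR3) with Nrp2 as a co-receptor. In mature lymphatic capillaries Lyve1 is a receptor for hyaluronan, while Mmrn1 and Reln encode secreted glycoproteins. None of the members is limited to lymphatic cells. Lyve1 is also made by some tissue macrophages, Mmrn1 by megakaryocytes and platelets, Prox1 by heart muscle and neuroendocrine cells, and Nrp2 by mesenchyme and myeloid cells.

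Mmrn1 was lower in the arrays labelled Fgf10+/-, and it was the single tested member past the threshold, a Benjamini-Hochberg adjusted p below 0.05 over all tested genes. Prox1 and Lyve1 had lower means without passing, and the intervals of Lyve1, Reln and Nrp2 spanned 0. Among all genes 0.795% were called in either direction and 0.569% were called lower. Of the 5 members, 4 had a difference below 0, as had 48.7% of all genes, and 2 (Mmrn1 and Prox1) were lower at an unadjusted limma p below 0.05, as were 5.79% of all genes (11.2% in either direction). The members' median log2 difference was -0.37, against 0.0069 for all tested genes. That median is the value of Lyve1, and the 5 differences ran from -0.95 for Prox1 to 0.35 for Reln.

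**Figure D1:**
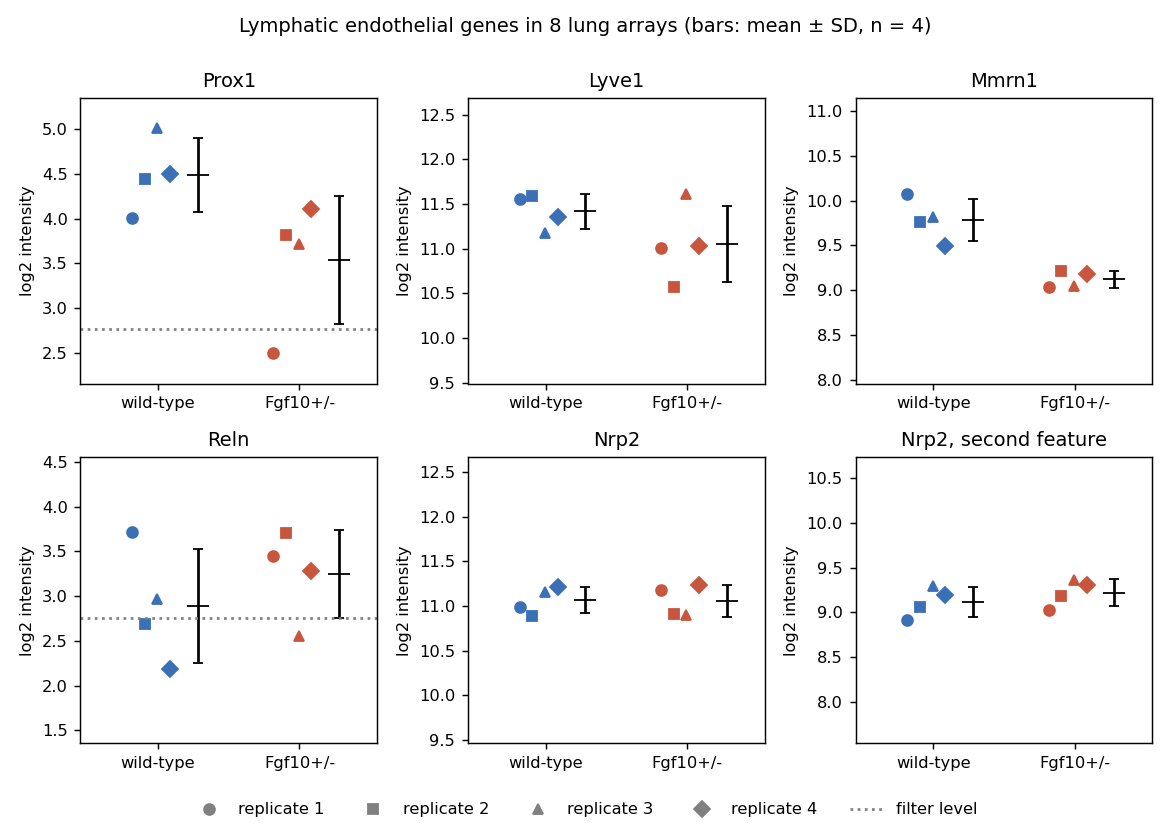
Log2 intensity (y axis) of each member feature in wild-type arrays and in arrays labelled Fgf10+/- (x axis), with every panel spanning the same range. Points are arrays, marked by replicate number, bars are the mean and SD of 4 arrays, and the dotted line is the filter level of 2.76. The groups lie apart for Mmrn1 and overlap for the other 5 features.

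Prox1, the transcription factor that gives lymphatic endothelium its identity, was dim. It read 4.00, 4.44, 5.01 and 4.50 in wild-type arrays 1 to 4 and 2.49, 3.82, 3.71 and 4.11 in arrays 1 to 4 labelled Fgf10+/- (log2 intensity). The groups overlapped, since array 4 labelled Fgf10+/- lay above wild-type array 1, and array 1 labelled Fgf10+/- fell below the filter level of 2.76. Whether that reading lay above background is unknown, because the deposited values hold no background level. The group means were 3.53 ± 0.72 and 4.49 ± 0.41 (SD, n = 4 each), a log2 difference of -0.95 (SE 0.39, 95% CI -1.79 to -0.11, limma adjusted p = 0.366). As a ratio, Prox1 stood at 0.516 of wild-type with an interval from 0.289 to 0.924. Of all tested genes, 1.33% had a difference at least as far below 0. Without array 1 labelled Fgf10+/- the difference was -0.61.

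Lyve1, the hyaluronan receptor, was bright in every array. Wild-type arrays 1 to 4 read 11.56, 11.59, 11.17 and 11.36, and arrays 1 to 4 labelled Fgf10+/- read 11.00, 10.57, 11.61 and 11.03. Of the latter, array 3 was the highest of all 8 and the other 3 lay below every wild-type array. The means were 11.05 ± 0.43 and 11.42 ± 0.19 (SD, n = 4 each), a difference of -0.37 (SE 0.17, 95% CI -0.73 to 0.0033, limma adjusted p = 0.452). The value rested on single arrays, at -0.20 without array 2 and -0.55 when array 3 labelled Fgf10+/- was dropped, and neither passed.

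Nrp2, a co-receptor for Vegfc and for class 3 semaphorins, was measured by 2 features annotated to different RefSeq transcripts. The brighter feature read 10.99, 10.89, 11.16 and 11.21 in wild-type arrays 1 to 4 and 11.18, 10.91, 10.90 and 11.23 in arrays 1 to 4 labelled Fgf10+/-. Its difference of -0.0099 had an interval from -0.23 to 0.21 (limma adjusted p = 0.984), which in ratios runs from 0.851 to 1.16. The second feature averaged 9.22 ± 0.15 and 9.12 ± 0.17 (SD, n = 4 each), which is 0.11 higher, with an interval from -0.15 to 0.36. The groups overlapped in both features.

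Mmrn1 encodes multimerin 1, a large secreted protein stored in platelets and in endothelium. In wild-type arrays 1 to 4 it read 10.07, 9.77, 9.81 and 9.50, and in arrays 1 to 4 labelled Fgf10+/- it read 9.03, 9.22, 9.05 and 9.18. The lowest wild-type array thus lay above the highest array of the other group, as in 3.51% of all tested genes, and 6.64% were apart in either direction. The wild-type arrays also spread more widely than the others. The mean was 9.79 ± 0.24 in wild-type lungs and 9.12 ± 0.09 in the others (SD, n = 4 each), a log2 difference of -0.67 (SE 0.12, 95% CI -0.93 to -0.41, limma adjusted p = 0.0211), or 1.59-fold lower. Differences this far below 0 were seen in 3.8% of tested genes. The adjusted p passed in 4 of the 8 fits with 1 array left out. Leaving out array 1, 3 or 4 labelled Fgf10+/- gave 0.0769, 0.078 and 0.0554, and leaving out wild-type array 2 gave 0.0743, while the difference itself stayed between -0.76 and -0.57. Without the trend of variance over intensity, a setting under which 1 gene of all was called, it was 0.183.

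**Figure D2:**
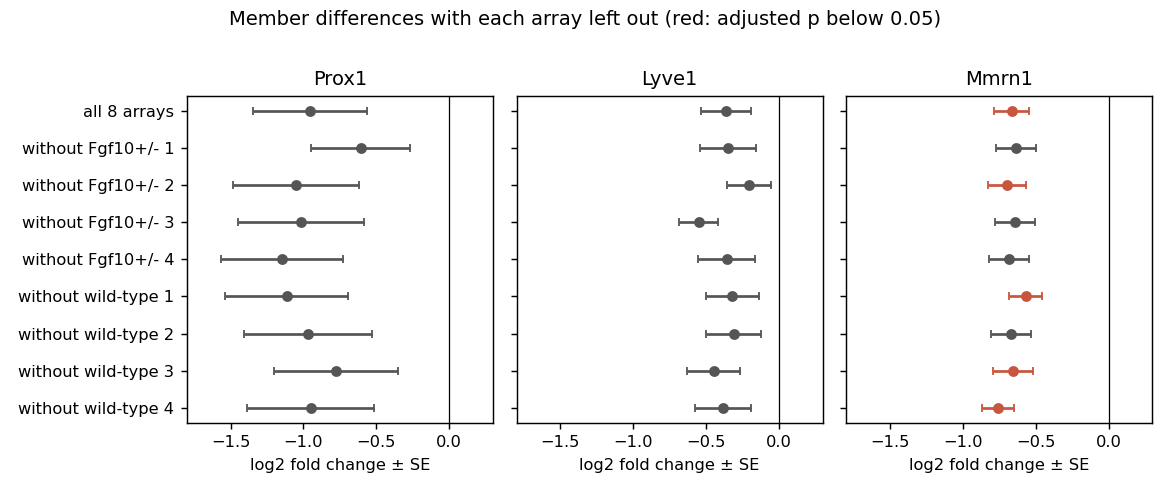
Log2 difference with its SE (x axis) of Prox1, Lyve1 and Mmrn1 in all 8 arrays and with each array left out in turn (y axis), where red marks an adjusted p below 0.05. Mmrn1 moves little and passes in 4 of the 8 fits, while Prox1 goes from -1.15 to -0.61 and Lyve1 from -0.55 to -0.20.

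Mmrn1 and Prox1 had the most negative differences, so the 250 bases before their RefSeq start sites (GRCm38.p6) are shown. RefSeq's promoter table held windows for 5 of the 6 members, Lyve1 being the other. Each window was searched on both strands for AACAAT, bound by SOX factors such as Sox18, for the nuclear receptor half-site AGGTCA, which Nr2f2 recognises, and for the forkhead motif TGTTTAC of the Foxc2 family. Matches are in capitals, and Mmrn1 holds a single match, the SOX motif on the gene's own strand. Among all 32851 windows of this length 9.42% held the SOX motif, 14.0% the half-site and 3.17% the forkhead motif, and a match is a description of letters and not a site. The Mmrn1 window is chr6:60944067-60944316 on the + strand and the Prox1 window, the first of 2 in the table, is chr1:190170828-190171077 on the - strand.
Mmrn1: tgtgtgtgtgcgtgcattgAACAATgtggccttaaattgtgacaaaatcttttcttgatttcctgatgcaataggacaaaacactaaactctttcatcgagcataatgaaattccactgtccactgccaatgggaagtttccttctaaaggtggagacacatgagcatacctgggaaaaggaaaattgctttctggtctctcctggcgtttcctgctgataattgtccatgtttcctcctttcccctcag
Prox1: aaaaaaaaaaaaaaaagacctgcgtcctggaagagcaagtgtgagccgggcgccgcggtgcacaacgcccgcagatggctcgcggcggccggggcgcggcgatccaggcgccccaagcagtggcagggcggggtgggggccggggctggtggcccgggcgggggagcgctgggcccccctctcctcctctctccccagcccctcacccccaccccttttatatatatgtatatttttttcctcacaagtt
The windows shown also differ in base composition, with 42.4% G and C in that of Mmrn1 and 64.8% in that of Prox1, against a median of 52.4% over all windows. The second Prox1 window, not shown, had 56.0%.

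Reln encodes reelin, a secreted glycoprotein that lymphatic endothelium releases. It was near the filter level, with 3.72, 2.69, 2.97 and 2.19 in wild-type arrays 1 to 4 and 3.45, 3.70, 2.55 and 3.28 in arrays 1 to 4 labelled Fgf10+/-. In 3 of the 8 arrays it read below 2.76, and the groups overlapped. Its difference of 0.35 (SE 0.42, 95% CI -0.55 to 1.26, limma adjusted p = 0.821) leaves both a clear rise and a fall within the interval. Whether the lowest readings lay above background is unknown.

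Among pairs of members only Mmrn1 with Reln rose and fell closely together within the groups, and Prox1 and Reln were dim. After each group's mean was taken out, Pearson's r over the 8 arrays was 0.019 for Prox1 with Mmrn1, -0.18 for Prox1 with Lyve1 and -0.10 for Lyve1 with Mmrn1. The highest value of the 10 pairs was 0.86, for Mmrn1 with Reln. With the group means left in, that pair had 0.034, and the highest was 0.63, for Prox1 with Mmrn1. These are descriptions over arrays that share a normalization, and 8 arrays give them little precision. The tested genes most like each member over the 8 arrays, without regard to group, were a mixed set. They were Cst3, Srgn and Fbp1 for Mmrn1 (r between 0.965 and 0.983), Treml1, Ethe1 and Ppm1g for Lyve1 (0.940 to 0.964) and LTO1, Zfp68 and Nsg1 for Prox1 (0.932 to 0.950). For Reln they were Cd52, Noxo1 and Apobr (0.968 to 0.982) and for Nrp2 Gapdhs, Olfr889 and Klk1b22 (0.966 to 0.990). No other lymphatic gene of the lists was among these 15. Among them Srgn, the proteoglycan of secretory granules, was called too, at -0.40 (limma adjusted p = 0.0299). Of all genes 0.795% were called. Srgn was picked for its likeness to Mmrn1 with the group difference left in, so its call is not separate from that of Mmrn1.

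Other genes of lymphatic endothelium gave a mixed picture. Of 14 listed, 12 were tested, and 1 was called lower and none higher, with a median of -0.059 and 7 of 12 below 0. The called gene was Fxyd6, which encodes a regulator of the sodium-potassium pump. It read 10.66, 10.50, 10.73 and 10.79 in wild-type arrays and 10.10, 10.04, 10.003 and 10.09 in arrays labelled Fgf10+/-, with no overlap. Its difference was -0.61 (SE 0.09, 95% CI -0.80 to -0.42, limma adjusted p = 0.00783), and it passed in all 8 fits with 1 array left out. Nts, the neurotensin gene, had -0.69 (limma adjusted p = 0.285) and Itga9, an integrin of lymphatic valves, 0.29 (adjusted p = 0.233), and each had groups that lay apart. Flt4, the VEGFC receptor, was dim at 4.20 ± 0.09 and 4.52 ± 0.26 (SD, n = 4 each), a difference of -0.32 (SE 0.27, limma adjusted p = 0.733). The valve transcription factor Foxc2 had -0.37 (SE 0.24), and Pdpn, which lung epithelium shares, had -0.092 (SE 0.095).

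The pathway that specifies and feeds lymphatic vessels showed no called gene among 24 tested of 25 listed, with a median of -0.031 and 14 of 24 below 0. At an unadjusted p below 0.05, 3 were lower and 2 higher. The lower ones were Adm, which encodes adrenomedullin, at -0.85 (SE 0.21, limma adjusted p = 0.086), the matrix protein gene Svep1 at -0.51 (SE 0.12, adjusted p = 0.0859) and the ligand Vegfc at -0.30 (SE 0.12, adjusted p = 0.362). Vegfc read 10.83, 10.36, 10.44 and 10.27 in wild-type arrays 1 to 4 and 10.09, 10.30, 10.29 and 10.01 in the others. Its groups overlapped, and without wild-type array 1 its difference was -0.18. The second ligand, Vegfd, had -0.0039 (SE 0.19), and Ccbe1, which helps to process Vegfc, 0.19 (SE 0.30). Upstream of Prox1, Sox18 had -0.025 (SE 0.11) and Nr2f2 0.21 (SE 0.10, limma adjusted p = 0.451).

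**Figure D3:**
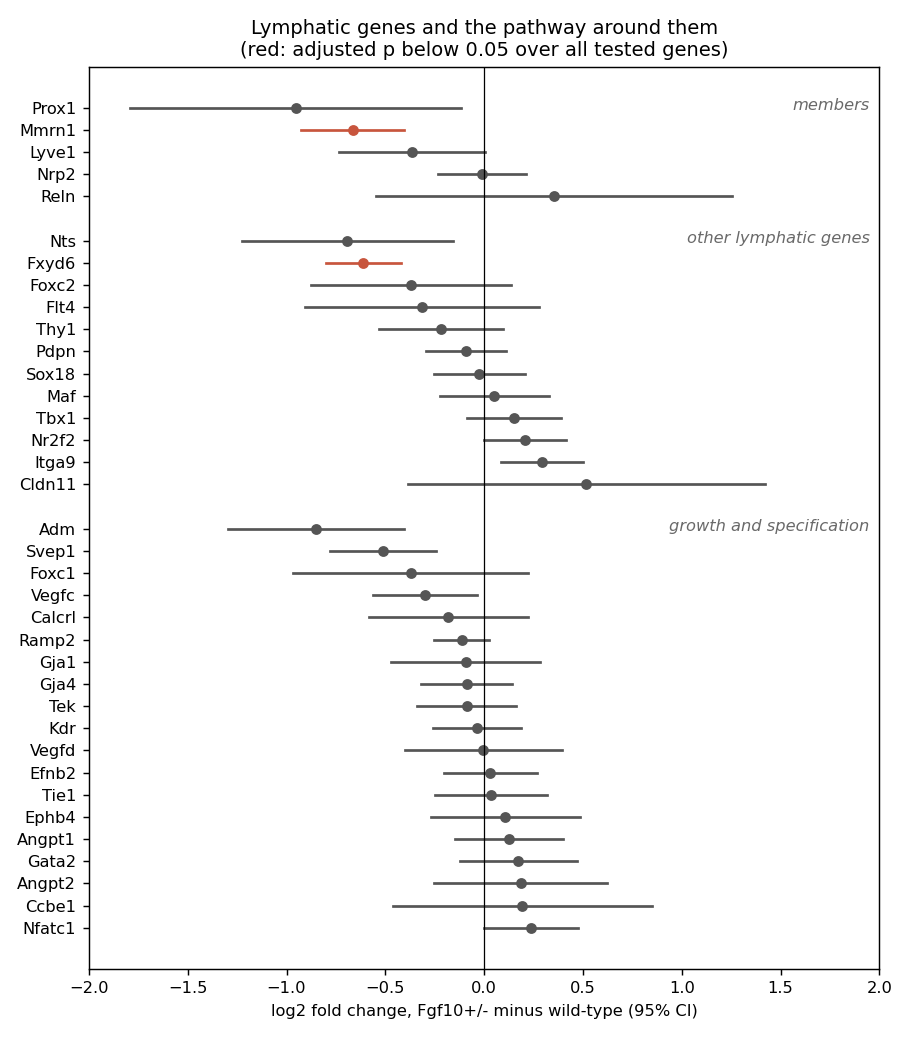
Log2 difference between arrays labelled Fgf10+/- and wild-type arrays, with its 95% CI (x axis), for the members, other lymphatic genes and the growth and specification pathway (y axis), genes of several lists being drawn once. Red marks an adjusted p below 0.05, which Mmrn1 and Fxyd6 reach, and the intervals of Vegfd, Sox18 and Nrp2 span 0.

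No partner of the members was called. Of 18 semaphorin and VEGF partners of Nrp2 the median was -0.061. Their smallest p-values belonged to Sema3d at -0.95 (SE 0.30, limma adjusted p = 0.206), Sema3f at -0.25 (SE 0.09, adjusted p = 0.255), Vegfc and Sema3b at 0.30 (SE 0.12, adjusted p = 0.368). Sema3f, a repulsive ligand that binds Nrp2, lay apart between the groups, at 11.86 ± 0.13 and 12.12 ± 0.11 (SD, n = 4 each), and the co-receptor Nrp1 had -0.12 (SE 0.15). None of 8 genes of reelin signalling was called (median -0.093). The receptors Vldlr and Lrp8 had -0.035 (SE 0.14) and -0.83 (SE 0.46), and the adaptor Dab1 -0.18 (SE 0.31). Lrp8 averaged 2.70 in arrays labelled Fgf10+/-, below the filter level. Without wild-type array 2 Lrp8 had -0.35 and Dab1 0.025. The smallest p of this list was that of Rapgef1, at -0.27 (limma adjusted p = 0.453), and Crkl and Crk had -0.15 and 0.099. Of the 6 genes of the CCR7 axis 3 were tested and none was called. Ccr7 had 0.32 (SE 0.26), Ackr4 0.083 (SE 0.46) and the ligand Ccl19 0.011 (SE 0.51).

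Blood vessel endothelium was compared with the lymphatic set because both belong to the vessel wall. None of its 20 markers was called, with a median of -0.041 and a range from -0.36 to 0.70. At an unadjusted limma p below 0.05, 5 were lower and 1 higher. Of all genes, 5.79% were lower at that level and 11.2% differed in either direction. Cdh5, the junction protein of all endothelium, read 11.09 ± 0.13 and 11.13 ± 0.06 (SD, n = 4 each), a difference of -0.036 (SE 0.08), and Pecam1 had -0.29 (SE 0.15, limma adjusted p = 0.521). The smallest p-values were those of Vwf at -0.36 (adjusted p = 0.0823), Gja5 at -0.35, Plvap at -0.27 and Eng at -0.24 (adjusted p from 0.377 to 0.39). Vwf alone of the 20 had groups that lay apart, as had 6.64% of all genes in either direction. When every value was taken relative to its array's blood endothelium score, the mean deviation of these 20 markers, Mmrn1 stood at -0.62 (SE 0.14, 95% CI -0.93 to -0.32) and no longer passed (limma adjusted p = 0.0663). On that scale Prox1 had -0.91 (SE 0.39), Lyve1 -0.32 (SE 0.16), Reln 0.40 (SE 0.44) and Nrp2 0.035 (SE 0.11). The score is not one of blood vessels alone, since Cdh5 belongs to all endothelium and Kdr, Tek and Tie1 are also in the lymphatic growth list. In whole lung, fewer lymphatic cells and less of an RNA per cell cannot be told apart.

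Markers of other cells that can make the members were read beside them, and the part of those cells in the values above was not tested. Of 14 tested macrophage markers none was called, 10 were below 0, and the median was -0.34 with a range from -0.88 to 0.56. At an unadjusted limma p below 0.05, 5 were lower and none higher, and 5.79% of all genes were lower. Their scores ran from -0.22 to -0.070 in arrays labelled Fgf10+/- and from -0.061 to 0.37 in wild-type arrays, without overlap. The gap was narrow, many lists were scored, and how often a list score parts the groups by chance was not tested. The smallest p-values were those of C1qb at -0.88, Stab1 at -0.37, C1qc at -0.59 and C1qa at -0.61 (limma adjusted p from 0.181 to 0.219). Mrc1, which marks many Lyve1-bearing macrophages, had -0.062 (SE 0.16), and 1 marker does not speak for those cells. The rest of the tested list had Cd68 at -0.77, Folr2 at -0.61, Adgre1 at -0.59, F13a1 at -0.32 and Csf1r at -0.25. Above 0 lay Siglecf at 0.56, Mertk at 0.12, Marco at 0.099 and Cd14 at 0.0035. Cd163 lay below the filter level. Within groups the macrophage score had an r of -0.16 with Lyve1 and 0.02 with Mmrn1 over the 8 arrays.

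All 9 tested platelet and megakaryocyte markers were below 0, as were 48.7% of all genes, none was called, and the median was -0.35. That shared sign rested on array 2 labelled Fgf10+/-, since without it Gp9 had 0.041, Gp1ba 0.084 and Gp5 0.43. Pf4, a platelet granule chemokine, read 11.35 ± 0.40 and 12.02 ± 0.15 (SD, n = 4 each), a difference of -0.67 (SE 0.16, limma adjusted p = 0.0799), Treml1 had -0.46, Itga2b -0.98 and Gp1bb -0.52. Single arrays weighed on the last 3, since Itga2b had -0.20 without wild-type array 2, and Treml1 had -0.24 and Gp1bb -0.23 without array 2 labelled Fgf10+/-. Scores ran from -0.98 to 0.31 in arrays labelled Fgf10+/- and from -0.17 to 0.46 in wild-type arrays. Array 2 labelled Fgf10+/- had the lowest platelet score, -0.98, and also the lowest Lyve1. Within groups the platelet score had an r of 0.85 with Lyve1 and -0.42 with Mmrn1 over the 8 arrays.

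The remaining lists held the heart, neuroendocrine, mesothelial and lymphoid cells that could reach a lung sample. Of 10 cardiac genes 1 was called, the myosin Myh7, which rose by 0.76 (limma adjusted p = 0.01), and Tnnt2 had -0.26, Actc1 0.24 and Nppa -1.12, the median being -0.0095. Without wild-type array 4 the sign of Nppa turned, to 0.51, and without wild-type array 1 Actc1 had 0.044. None of 9 neuroendocrine markers was called (median -0.052), with Calca at -0.60, Syp at -0.33, Insm1 at 0.55 and Grp at -0.31. Calca had -0.23 without array 4 and Grp -0.066 without array 1 labelled Fgf10+/-. None of 8 mesothelial markers was called although 7 were below 0 (median -0.74), with Msln at -0.66, Rspo1 at -0.79, Wt1 at -1.19 and Upk3b at -1.15. Without wild-type array 4 these were -0.44, -0.34, -0.49 and -0.46. Wild-type array 4 had a mesothelial score of 1.74, against -0.65 to 0.52 in the other 3, and a cardiac score of 0.72, each the highest of the 8 arrays. The same array had the lowest wild-type Mmrn1 and Reln, and without it Mmrn1 differed by -0.76 (limma adjusted p = 0.0152) and Reln by 0.12. None of 10 tested lymphocyte and lymphoid stroma genes of 14 listed was called (median 0.15), with Cr2 at 1.02, Madcam1 at 0.67, Cd3g at 0.72 and Cd79a at 0.23. Their score had an r of -0.88 with Lyve1 within groups. For Mmrn1 the within-group r over the 8 arrays was -0.94 with the mesothelial score, -0.90 with the cardiac score and 0.90 with the neuroendocrine score, and for Reln it was -0.88 with the mesothelial score. Among all correlations of members with list scores these were the most extreme, picked by their size. Mmrn1 also had -0.82 with the score of the semaphorin and VEGF list. Wild-type array 4 had the lowest neuroendocrine score too, at -0.72, and how far these correlations rest on that array was not tested.

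**Figure D4:**
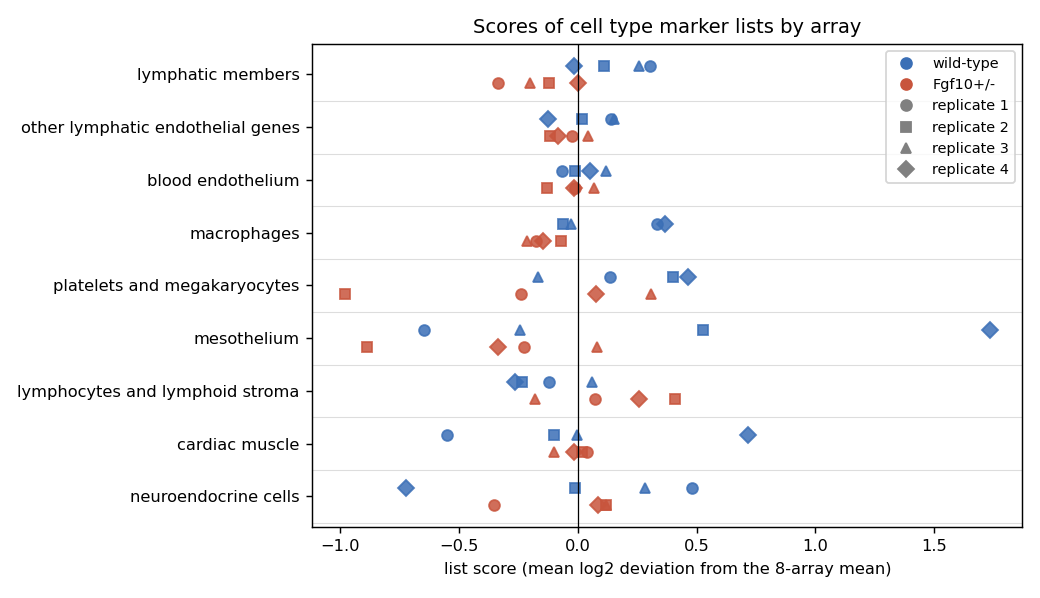
Score of each cell type list (y axis), the mean log2 deviation of its genes from their 8-array means (x axis), in wild-type arrays and in arrays labelled Fgf10+/-, marked by replicate. The groups do not overlap for macrophages, where the gap between them is narrow, and wild-type array 4 stands far to the right for mesothelium at 1.74.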

How the data were processed

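The data were 8 Agilent arrays of whole newborn mouse lung, 4 per group, grouped by their titles. The deposited table holds log2 intensities of 62976 features. The submitters' processing notes name limma without version or step, and no source used here states the background correction. The 8 columns share nearly the same quantiles, so nothing further was normalized. Features with a missing value (189) were left out. Symbols came from the platform annotation (31465 features with 1 symbol, 0 with several, 31511 unnamed here), of which 29050 matched the RefSeq table of GRCm38.p6 by accession and 2933 symbols were updated. Features with a mean below the 30th percentile (2.76) were removed, and the brightest feature stood for each gene, giving 17234 genes.

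The test was limma 3.58.1 under R 4.3.3 (lmFit, eBayes with a variance trend), Fgf10+/- minus wild-type, two-sided, with Benjamini-Hochberg adjustment over all tested genes. The fit was tested on simulated data. Arrays have no depth, and their number limits the precision. Same-numbered arrays of the 2 groups did not deviate together (correlations of -0.0069, -0.078, 0.032 and 0.063), so no pairing was used.

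The members, lists and alternatives were chosen with earlier results of these data known. The text names the members, a panel of related genes, up to 4 genes with the smallest p per list and the 3 genes most like each member. Srgn and Mrc1 were singled out after their values were seen, and the rest of the tested macrophage list was then given beside Mrc1. The alternatives were other normalizations, filters, feature summaries, variance models and weights, the replicate block, leaving out each array, and the scale relative to blood endothelium, which was chosen after seeing the data.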

Additional observations from a re-analysis of the deposited data

Results flagged for a closer look

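In groups of 4 arrays, a reading was singled out when its gap to the nearest other array exceeded 0.829 of the group's range. Of 152 groups checked, 10 were so marked, and chance marks about 1 in 20. None was a member of the lymphatic set.

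Among genes linked to the lymphatic set, Nr2f2 was low in array 2 labelled Fgf10+/- (10.40, next 10.59), Foxc2 was high in wild-type array 3 (5.94, next 5.54), Lrp8 was high in array 4 labelled Fgf10+/- (2.88, next 2.66) and Rapgef1 was low in array 3 of that group (8.23, next 8.62). Ccl19 was low in array 4 of each group, at 2.94 in the one labelled Fgf10+/- and 2.13 in wild-type. Among markers of other cells, Nppa, the atrial natriuretic peptide gene, read 11.25 in wild-type array 4 against 4.86 in the next. Wt1 was low in array 2 labelled Fgf10+/- (3.08, next 4.89) and Cr2 in array 3 of that group (3.09, next 4.77). The neuroendocrine score was low in array 1 labelled Fgf10+/-, at -0.35 against 0.083 in the next.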

How the results depend on the processing

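Prox1, Lyve1 and Reln kept their sign and stayed short of the threshold under all alternatives run, Reln having no value under the 50th percentile filter. Mmrn1 kept its sign under all of them. Without the variance trend 1 gene and 0 members were called, and Mmrn1 had -0.67 with a limma adjusted p = 0.183. Relative to the blood endothelium score, a scale chosen after seeing the data, 0 members were called and Mmrn1 had -0.62. With each array left out in turn, called genes ranged from 34 to 173 (137 with all arrays), called members from 0 to 1, Mmrn1 from -0.76 to -0.57, and Nrp2 from -0.070 to 0.041. The Nrp2 sign also turned with the mean of all features (0.048), with array weights (0.017) and relative to blood endothelium (0.035). The cause of these changes was not tested. With the replicate block 116 genes and 1 member were called, Mmrn1 having -0.67 with a limma adjusted p = 0.0457, and not every array correlated best with its own number. Reln lay close to the filter level and Prox1 fell below it in 1 array, and the deposited values do not show whether these readings were above background.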
